A study of Mus musculus with 10 samples.

Results

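Accessible chromatin around 4 mouse genes, Nr6a1, Lin28a, Lin28b and Hmga2, was followed through the differentiation of embryonic stem cells toward neuromesodermal progenitors and after exposure to Gdf11. The assay was ATAC-seq, in which a transposase inserts sequencing adapters into open DNA. Peaks of the 10 libraries were merged into 246799 regions, and a region was given to a gene when that gene had the nearest protein-coding span within 50 kb. The rule gave 128 regions, of which 34 belonged to Nr6a1, 15 to Lin28a, 26 to Lin28b and 53 to Hmga2. Assignment by nearness leaves unknown which gene a region serves, and the levels are of open chromatin, not of transcripts.

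All libraries came from wild-type ES-Bruce4 cells, a stem cell line of the C57BL/6 strain that was kept on mouse embryo fibroblasts before differentiation. The medium was N2B27, made with B27 that did or did not contain vitamin A, and which of these each library received was not given. bFgf was present at 10 ng/ml from day 0, and the Wnt pathway activator CHIR99021 at 5 µM from day 2. Whether the day 2 cells were taken before that addition was not stated. The 5 groups, of 2 libraries each from 50000 cells, were untreated cells at day 2, day 3, day 6 and day 7, and day 7 cells given human Gdf11 at 50 ng/ml on day 6 for 24 h. Whether both libraries of a group stem from independent cultures was not stated, so p-values reflect only the library-to-library spread, which may be technical. In bulk libraries, fewer cells with an open region and less opening per cell cannot be told apart.

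Nr6a1 is an orphan nuclear receptor, also called germ cell nuclear factor, that represses Pou5f1 as pluripotency ends and is needed for the formation of the mouse trunk. Lin28a and Lin28b are paralogous RNA-binding proteins that block the maturation of let-7 microRNAs. Hmga2, an architectural chromatin protein that binds AT-rich DNA, is a well-known target that let-7 represses. Gdf11 is a TGF-beta family ligand that signals through Smad2 and Smad3, ends the trunk phase of axial growth and turns on posterior Hox genes.

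The promoter windows of Lin28a, Lin28b and the downstream start of Nr6a1 are shown because a motif searched was found in each, and that of the upstream Nr6a1 start for comparison with the other start of the gene. Each runs from 250 bases before to 50 bases after a RefSeq start site, in build GRCm38.p6, and is read 5′ to 3′ along the minus strand, on which all 4 genes lie. Capitals mark matches on either strand to the motifs searched, which were TTTATG of Cdx and posterior Hox factors, CTTTGA of Tcf and Lef factors, CAGACA of Smads, TGTGGA of Foxh1, the POU octamer ATGCAAA, the nuclear receptor half-site AGGTCA and a direct repeat of 2 such half-sites with no base between. They lie at chr4:134018767-134019066 for Lin28a, at chr2:38926412-38926711 and chr2:38784466-38784765 for the upstream and downstream starts of Nr6a1, and at chr10:45470152-45470451 for Lin28b.
Lin28a: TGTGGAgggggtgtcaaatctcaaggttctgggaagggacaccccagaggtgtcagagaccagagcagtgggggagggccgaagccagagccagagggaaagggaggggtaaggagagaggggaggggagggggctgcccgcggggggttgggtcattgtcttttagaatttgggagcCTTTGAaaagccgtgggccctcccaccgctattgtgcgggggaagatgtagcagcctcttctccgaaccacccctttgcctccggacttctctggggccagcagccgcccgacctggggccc
Nr6a1 upstream start: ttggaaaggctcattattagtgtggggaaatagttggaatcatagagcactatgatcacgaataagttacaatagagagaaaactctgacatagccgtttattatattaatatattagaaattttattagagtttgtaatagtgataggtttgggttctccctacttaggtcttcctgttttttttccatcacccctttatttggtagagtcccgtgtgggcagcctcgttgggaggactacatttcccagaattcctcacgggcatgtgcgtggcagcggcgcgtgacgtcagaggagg
Nr6a1 downstream start: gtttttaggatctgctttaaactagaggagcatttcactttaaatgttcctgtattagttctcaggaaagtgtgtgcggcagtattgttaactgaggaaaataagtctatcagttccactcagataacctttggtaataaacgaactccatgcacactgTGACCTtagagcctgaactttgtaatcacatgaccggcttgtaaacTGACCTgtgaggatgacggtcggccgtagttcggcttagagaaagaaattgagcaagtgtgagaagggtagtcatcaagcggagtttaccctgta
Lin28b: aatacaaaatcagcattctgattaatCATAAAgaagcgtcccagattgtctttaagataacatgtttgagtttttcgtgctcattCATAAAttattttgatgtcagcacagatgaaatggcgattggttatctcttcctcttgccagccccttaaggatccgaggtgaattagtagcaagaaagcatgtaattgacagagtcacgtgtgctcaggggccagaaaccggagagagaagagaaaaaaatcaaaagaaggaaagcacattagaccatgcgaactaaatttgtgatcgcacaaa

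In the Lin28a window, CTTTGA began at position -72 from the start site and TGTGGA at -250. The window of the downstream Nr6a1 start held AGGTCA on the other strand at -91 and -45, and that of Lin28b held TTTATG on the other strand at -224 and -165. None of the motifs was found at the upstream Nr6a1 start or in the window of Hmga2, which is not shown. Among 32851 promoter windows of the same length, TTTATG was found in 11.9%, CTTTGA in 16.0%, CAGACA in 21.0%, TGTGGA in 16.8%, ATGCAAA in 4.63%, AGGTCA in 16.3% and the direct repeat in 0.00609%. The direct repeat is the site that Nr6a1 itself binds, and it was in none of the members' windows. A match describes the letters only and shows no binding.

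Library totals over all regions ran from 7150334 to 12335735 counts, and 9.25% to 13.42% of them lay in mitochondrial regions. Of the 128 regions, 108 passed the filter on low counts, and the other 20 held 15 to 86 counts summed over the 10 libraries. Levels are given as CPM, counts scaled to library size with TMM factors, with the 2 libraries of a group in the order of their replicate numbers. A region or gene was called when its p-value from edgeR's quasi-likelihood test, adjusted by Benjamini-Hochberg over all 174851 tested regions or 19044 tested genes, was under 0.05. Every adjusted p below comes from that test.

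Of the 4 genes, Nr6a1 and Hmga2 had a higher mean at each later untreated day, though the last step of Hmga2 was not called, Lin28a had its highest mean at day 3, and the 1 called rise of Lin28b was from day 2 to day 3. The plot of summed accessibility shows all 10 libraries. Nr6a1 (gene ID 14536, chr2:38723369-38926461) had 31 of its regions inside its span, which held 82.5% of its counts. Its summed CPM was 141 and 130 at day 2, 205 and 214 at day 3, 265 and 237 at day 6, 301 and 327 at day 7 and 256 and 260 after Gdf11. Both untreated day 7 libraries were above all others, and the Gdf11 libraries lay within the range of day 6.

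Lin28a (gene ID 83557, chr4:134003330-134019196) had 8 regions inside its span and 7 outside it, and the span held 62.2% of its counts. Its summed CPM was 98.8 and 119 at day 2, 117 and 122 at day 3, 75.0 and 75.4 at day 6, 76.7 and 88.5 at day 7 and 44.2 and 51.0 after Gdf11. The Gdf11 libraries were the lowest of the 10.

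Lin28b (gene ID 380669, chr10:45376617-45486314) had 24 of its regions, with 98.0% of its counts, inside its span. Its CPM was 89.0 and 89.6 at day 2, 113 and 139 at day 3, 116 and 126 at day 6, 115 and 129 at day 7 and 94.7 and 104 after Gdf11. The Gdf11 libraries lay between those of day 2 and those of the other groups.

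Hmga2 (gene ID 15364, chr10:120361268-120476469) had 35 regions inside its span, which held 79.4% of its counts. Its CPM was 84.3 and 96.9 at day 2, 117 and 121 at day 3, 164 and 165 at day 6, 192 and 199 at day 7 and 150 and 162 after Gdf11. The Gdf11 libraries fell below day 6 and above day 3. Over the 10 libraries the log2 CPM of Hmga2 and Nr6a1 had a Pearson r of 0.958, given as a description of points that share libraries and days.

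Per kb of region, the level at day 7 was 31.2 ± 1.8 CPM for Nr6a1 (SD, n = 2), 19.9 ± 2.0 for Lin28a, 18.0 ± 1.46 for Lin28b and 15.2 ± 0.375 for Hmga2. Lin28a and Lin28b did not differ there beyond their spread. At day 2 the order was another, with 26.2 ± 3.48 CPM per kb for Lin28a, 13.4 ± 0.776 for Nr6a1, 13.1 ± 0.0623 for Lin28b and 7.05 ± 0.695 for Hmga2. Lin28a therefore led at day 2 and Nr6a1 at day 7, while Nr6a1 and Lin28b were within their spread at day 2.

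**Figure D1:**
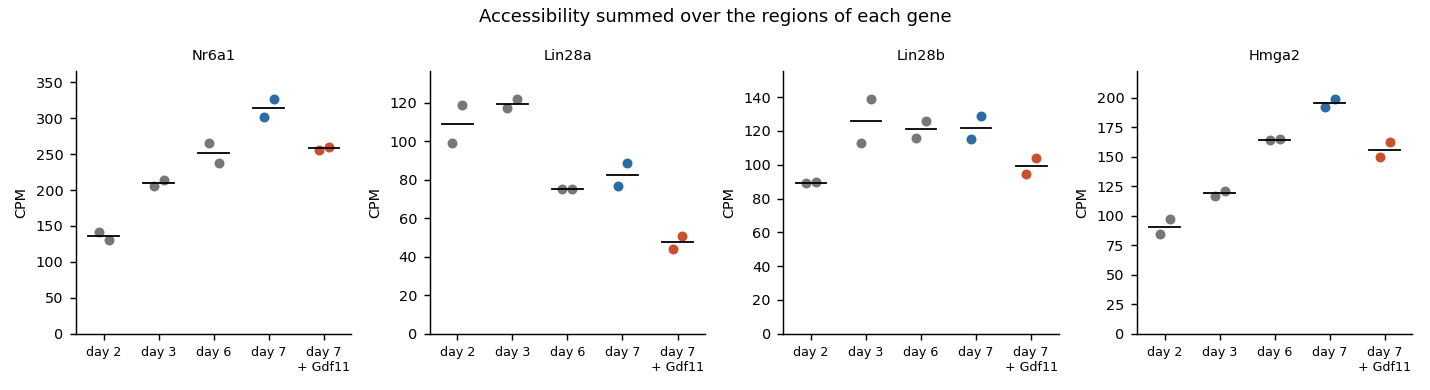
Accessibility (CPM) summed over the regions of Nr6a1, Lin28a, Lin28b and Hmga2 in each group, with points for the 2 libraries and a line for their mean. In all 4 panels both Gdf11 libraries (orange) lie below both untreated day 7 libraries (blue), and for Lin28a they are the lowest of the 10.

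All 4 genes were called lower after Gdf11 than in untreated day 7 cells, and Lin28a changed most. Among all genes tested, 11.2% were called lower and 2.05% higher, and the median gene changed by -0.1 on the log2 scale. The summed accessibility of Lin28a was 1.73-fold lower (log2 change -0.79 ± 0.11 SE, adjusted p = 4.35e-06). It was 1.22-fold lower for Nr6a1 (-0.28 ± 0.08, adjusted p = 0.0152), 1.25-fold lower for Hmga2 (-0.32 ± 0.09, adjusted p = 0.0104) and 1.23-fold lower for Lin28b (-0.29 ± 0.1, adjusted p = 0.0443). Relative to the median gene the changes were -0.69 for Lin28a, -0.22 for Hmga2, -0.19 for Lin28b and -0.18 for Nr6a1.

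Only the call of Lin28a held under every scaling and every library left out, with changes from -0.93 to -0.63. With library size alone as the scale, the median gene shifted to 0.06, 985 genes were called higher and 592 lower where TMM gave 391 and 2137, and the 3 smaller changes became -0.12 for Nr6a1, -0.13 for Lin28b and -0.16 for Hmga2, with no call (adjusted p = 0.381, 0.385 and 0.227). Without untreated day 7 replicate 2 the calls of Nr6a1, Lin28b and Hmga2 were lost (adjusted p = 0.14, 0.25 and 0.0677), as they were without Gdf11 replicate 1 (adjusted p = 0.0591, 0.225 and 0.0889). Whether Lin28a fell more than the other 3 genes was not tested.

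Region by region, 68 of the 108 tested regions had a log2 change below 0 with Gdf11. Of the 108, 12 were called lower and 1 higher, against 2.63% and 1.07% of all regions tested. The lower calls were 4 of 31 regions of Nr6a1, 4 of 15 of Lin28a, 2 of 19 of Lin28b and 2 of 43 of Hmga2, and the higher call was an Hmga2 region. The median log2 change was -0.14 over the regions of Nr6a1, -0.76 for Lin28a, -0.24 for Lin28b and -0.11 for Hmga2, against 0.03 over all regions. Leaving out 1 library left 5 to 8 of the lower calls, with 5 without untreated day 7 replicate 2 or Gdf11 replicate 1, 7 without untreated day 7 replicate 1 and 8 without Gdf11 replicate 2. The plot of changes by position shows the Lin28a calls close to the start site and those of the other 3 genes 11.4 to 143.9 kb downstream of it. For Nr6a1 the distance is from the upstream of 2 annotated starts. Its calls at 141.9 and 143.9 kb lie at or near the downstream start.

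**Figure D2:**
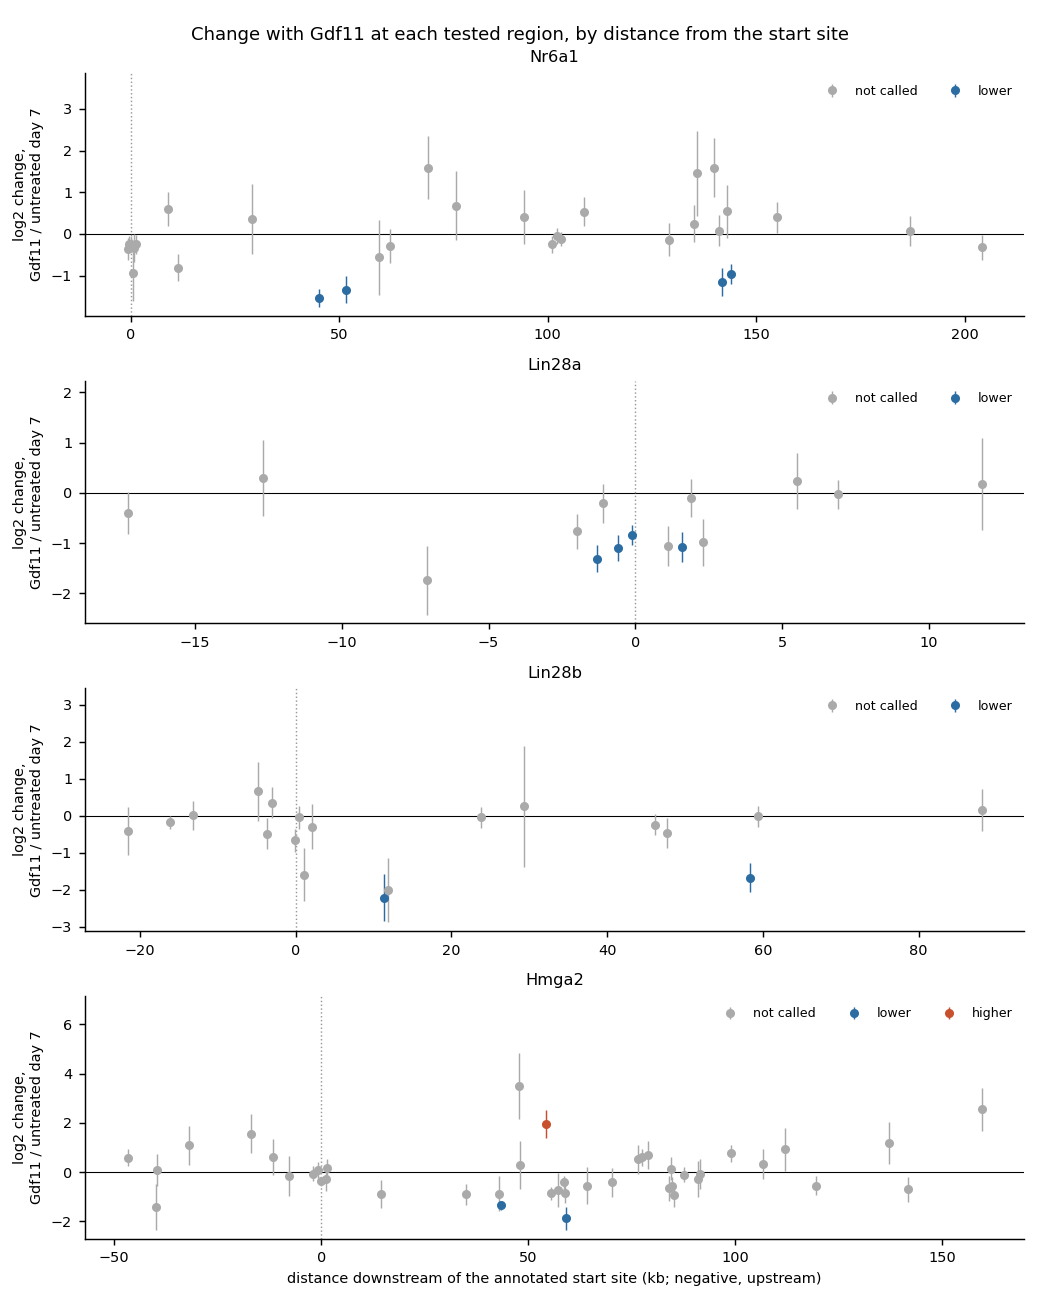
Log2 change with Gdf11 against untreated day 7 (bars, SE) at each of the 108 tested regions, by distance in kb downstream of the annotated start site of each gene (negative, upstream). For Nr6a1 this is the upstream of its 2 starts. The 12 lower calls are blue, the 1 higher call is red and regions not called are grey.

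In Lin28a, every region called lower lay within 1.6 kb of the start site. The region over the start (chr4:134018698-134019156) held 19.8 and 20.7 CPM at day 2, 21.1 and 30.9 at day 3, 14.9 and 16.3 at day 6, 19.3 and 18.7 at day 7 and 10.0 and 11.2 after Gdf11. It was 1.79-fold lower after Gdf11 than at untreated day 7 (log2 change -0.84 ± 0.2, adjusted p = 0.0076), and both Gdf11 libraries were below all others. This region overlaps the Lin28a promoter window printed above with its CTTTGA and TGTGGA matches.

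The region 1.3 kb upstream (chr4:134019995-134020261) held 3.87 and 5.75 CPM at day 2, 6.29 and 6.06 at day 3, 10.3 and 11.2 at day 6, 11 and 14.4 at day 7 and 4.9 and 5.27 after Gdf11. Its level had risen 1.73-fold from day 3 to day 6 (adjusted p = 0.0338), a call lost whichever library was left out (0.108 to 0.168). It was 2.48-fold lower with Gdf11 than without (log2 change -1.31 ± 0.27, adjusted p = 0.000997). The Gdf11 libraries were back in the range of day 2. Of the 4 Lin28a calls for Gdf11, this was the only one kept whichever library was left out.

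A neighbouring region 0.6 kb upstream (chr4:134019272-134019598) held 10.8 and 11.6 CPM at day 6, 9.09 and 13.8 at day 7 and 5.06 and 5.49 after Gdf11. It was 2.14-fold lower than at untreated day 7 (log2 change -1.1 ± 0.26, adjusted p = 0.00479). In the region 1.6 kb downstream (chr4:134017087-134017401), the level was 9.09 and 9.13 CPM at day 7 and 3.04 and 5.81 after Gdf11, a 2.09-fold difference (log2 change -1.07 ± 0.3, adjusted p = 0.0292). Both pairs of libraries were apart in each of these regions. The call of the start region was lost without untreated day 7 replicate 1 or Gdf11 replicate 1 (adjusted p = 0.0649 and 0.104), and that of the region 0.6 kb upstream without untreated day 7 replicate 2 or Gdf11 replicate 1 (adjusted p = 0.24 and 0.0706). The call 1.6 kb downstream was lost when any library but Gdf11 replicate 2 was left out (adjusted p from 0.102 to 0.514), and with library size alone, cyclic loess or DESeq2 (0.0652 to 0.0974).

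These 4 regions made up most of the Gdf11 difference in Lin28a. Of 35.0 CPM between the group means, the start region accounted for 23.9%, the region 1.3 kb upstream for 21.8%, that 0.6 kb upstream for 17.7% and that 1.6 kb downstream for 13.4%. The start region held the most Lin28a counts over the 10 libraries, 1680, and a region 6.9 kb downstream (chr4:134011521-134012295) the next most, 1227. The latter held 28.3 and 34.6 CPM at day 2, 23.9 and 23.2 at day 3, 5.67 and 5.75 at day 6, 3.33 and 3.83 at day 7 and 3.29 and 3.66 after Gdf11. It fell 4.12-fold between day 3 and day 6 (log2 change -2.04 ± 0.23, adjusted p = 3.56e-10), and its Gdf11 libraries overlapped those of untreated day 7 (-0.03, adjusted p = 0.976). The Lin28a locus held both a site inside the gene that lost accessibility by day 6 and a group of sites at the start that were lower after Gdf11. These changes were not kept to separate sites, since the start region was also lower at day 6 than at day 3. Its log2 change for that step ran from -0.98 to -0.46 over 11 alternative runs. From day 3 to day 6, 4 of the 15 Lin28a regions were called lower and 1 higher.

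**Figure D3:**
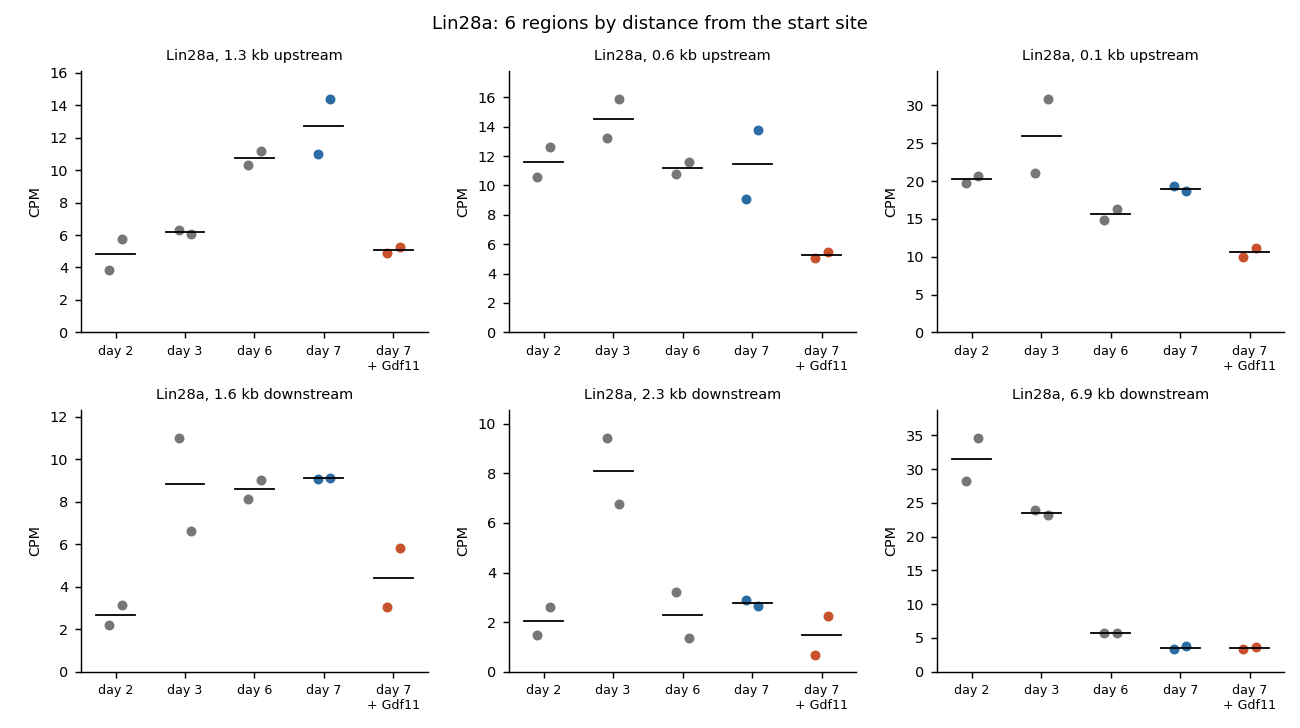
Accessibility (CPM) of 6 Lin28a regions by group, with points for libraries and lines for means, titled by distance from the start site. The 4 sites within 1.6 kb of the start have both Gdf11 libraries (orange) below both untreated day 7 libraries (blue), while the site 6.9 kb downstream is near 3 to 4 CPM in both.

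Among the Nr6a1 regions called for Gdf11, the largest change was at a site 45.2 kb inside the gene. That region (chr2:38880958-38881651) held 1.25 and 0.131 CPM at day 2, 9.85 and 7.79 at day 3, 33.8 and 28.3 at day 6, 29.9 and 30.6 at day 7 and 10.3 and 10.7 after Gdf11. No day 2 library had a peak called in it, while both libraries of every later group did. It opened 11.7-fold from day 2 to day 3 (log2 change 3.55 ± 0.37, adjusted p = 2.45e-11), on 12 and 1 counts at day 2, and the log2 change was 5.95 without day 2 replicate 1 and 2.77 without replicate 2. It opened a further 3.48-fold from day 3 to day 6 (1.8 ± 0.22, adjusted p = 6.46e-09). With Gdf11 it was 2.89-fold lower than at untreated day 7 (-1.53 ± 0.22, adjusted p = 1.63e-06) and 2.98-fold lower than at day 6 (-1.57 ± 0.21, adjusted p = 2.03e-06). The Gdf11 libraries were close to day 3 and far from both later untreated groups, and the call against untreated day 7 was kept under every alternative run.

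This region carried 35.1% of the 56.3 CPM by which Nr6a1 was lower with Gdf11. Without it the summed change of Nr6a1 was -0.2 on the log2 scale and no longer called (adjusted p = 0.0979). The region left out was picked for its smallest p in this same comparison, so a weaker sum was to be had by design.

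A second region 51.6 kb downstream (chr2:38874649-38875049) held 8.31 and 5.88 CPM at day 6, 8.19 and 9.13 at day 7 and 4.22 and 2.48 after Gdf11. It was 2.53-fold lower than at untreated day 7 (log2 change -1.34 ± 0.32, adjusted p = 0.00599), a call lost without untreated day 7 replicate 2 or Gdf11 replicate 2 (adjusted p = 0.0549 and 0.147). Further in, 143.9 kb downstream (chr2:38782347-38782720), the level was 11.7 and 12.4 CPM at day 6, 10.7 and 16.4 at day 7 and 6.41 and 7.32 after Gdf11. The difference from untreated day 7 was 1.94-fold (-0.96 ± 0.25, adjusted p = 0.0167), and it was not called with library size alone, cyclic loess or DESeq2 (0.0505 to 0.0661), or without untreated day 7 replicate 2 or Gdf11 replicate 1 (0.393 and 0.163). In both regions the Gdf11 libraries lay below both untreated day 7 libraries.

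Nr6a1 has 2 annotated starts, and the called site was at the downstream start. The region there (chr2:38784430-38784728), 141.9 kb from the upstream start and overlapping the printed window with its pair of AGGTCA matches, held 2.82 and 1.96 CPM at day 2, 5.78 and 3.9 at day 3, 6.95 and 4.93 at day 6, 6.66 and 8.1 at day 7 and 3.63 and 2.91 after Gdf11. It was 2.22-fold lower with Gdf11 (log2 change -1.15 ± 0.33, adjusted p = 0.0314), and the call was lost whichever library was left out (adjusted p from 0.0705 to 0.252), and with library size alone, cyclic loess or DESeq2 (0.0531 to 0.105). The regions at the upstream start were not called. That at chr2:38926179-38926563 held 27.6 and 31.8 CPM at day 7 and 24.4 and 25.4 after Gdf11 (-0.25 ± 0.19, adjusted p = 0.567). The adjacent region (chr2:38926617-38927037) held 31.6 and 27.5 at day 7 and 22.8 and 27.9 after Gdf11 (-0.23 ± 0.18, adjusted p = 0.573). Whether the starts differed in their change was not tested.

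At the upstream start, the changes called were those between day 2 and day 6. The adjacent region held 19.1 and 14.1 CPM at day 2, 38.1 and 46.3 at day 3 and 23.4 and 24.2 at day 6, a 2.52-fold rise (log2 change 1.33 ± 0.18, adjusted p = 8.65e-08) and then a 1.77-fold fall (-0.82 ± 0.18, adjusted p = 0.000423). A region 1.2 kb downstream (chr2:38925021-38925556) held 5.54 and 5.23 CPM at day 2, 29.4 and 30.9 at day 3, 15.4 and 10.7 at day 6, 13.0 and 10.6 at day 7 and 11.1 and 8.83 after Gdf11. It rose 5.57-fold by day 3 (2.48 ± 0.23, adjusted p = 1.4e-12) and fell 2.27-fold by day 6 (-1.18 ± 0.21, adjusted p = 2.03e-05), with both day 3 libraries above all others. Far from the upstream start and near the downstream start, a site 141.2 kb downstream (chr2:38785064-38785506) was also highest at day 3. It held 9.6 and 8.08 CPM then, against 2.82 and 2.48 at day 2 and 2.08 and 1.92 at day 6. Its rise was 3.33-fold (adjusted p = 0.000415) and its fall 4.4-fold (-2.14 ± 0.37, adjusted p = 1.82e-05). The opposite was seen 9.0 kb downstream (chr2:38917301-38917609), where 14.1 and 13.6 CPM at day 2 became 3.23 and 4.62 at day 3, a 3.61-fold fall (-1.85 ± 0.32, adjusted p = 1.5e-05).

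In 3 sites about 100 kb inside Nr6a1, the mean level was highest at untreated day 7, and no difference with Gdf11 was called. They lie within the span of Nr6a1os (chr2:38815972-38921863), a long noncoding RNA gene annotated on the opposite strand. The sites at chr2:38874649-38875049 and chr2:38880958-38881651, called lower with Gdf11, lie within that span too. ATAC-seq does not assign a site to either strand. The region at chr2:38822928-38823331 held 9.83 and 8.5 CPM at day 2, 13.6 and 8.95 at day 3, 37.6 and 32.6 at day 6, 51.3 and 60.8 at day 7 and 51.7 and 51.5 after Gdf11. From day 3 to day 6 it rose 3.05-fold (log2 change 1.61 ± 0.18, adjusted p = 7.36e-10), and from day 6 to untreated day 7 1.59-fold (0.67 ± 0.17, adjusted p = 0.0224). Its Gdf11 libraries overlapped those of untreated day 7 (-0.12 ± 0.16, adjusted p = 0.796).

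The neighbouring region at chr2:38823935-38824501 held 5.95 and 4.04 CPM at day 3, 20.5 and 16.7 at day 6, 27.7 and 35.9 at day 7 and 26.7 and 34.7 after Gdf11. It rose 3.64-fold from day 3 to day 6 (log2 change 1.86 ± 0.23, adjusted p = 8.15e-09) and was 1.63-fold above day 6 with Gdf11 (0.71 ± 0.2, adjusted p = 0.0331), the only higher call against day 6 among the 108 regions. That last call was lost without either day 6 library (adjusted p = 0.0758 and 0.373), without Gdf11 replicate 2 (0.546) and by DESeq2 (0.11). The third, at chr2:38825091-38825638, held 19.0 and 12.2 CPM at day 6, 25.8 and 35.4 at day 7 and 26.6 and 24.5 after Gdf11. It was 1.91-fold higher at untreated day 7 than at day 6 (0.94 ± 0.21, adjusted p = 0.00893), and its difference with Gdf11 was not called (-0.25 ± 0.21, adjusted p = 0.617). Within Nr6a1, then, the site at 45.2 kb was lower after Gdf11, whereas at these 3 sites the Gdf11 libraries overlapped those of untreated day 7.

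**Figure D4:**
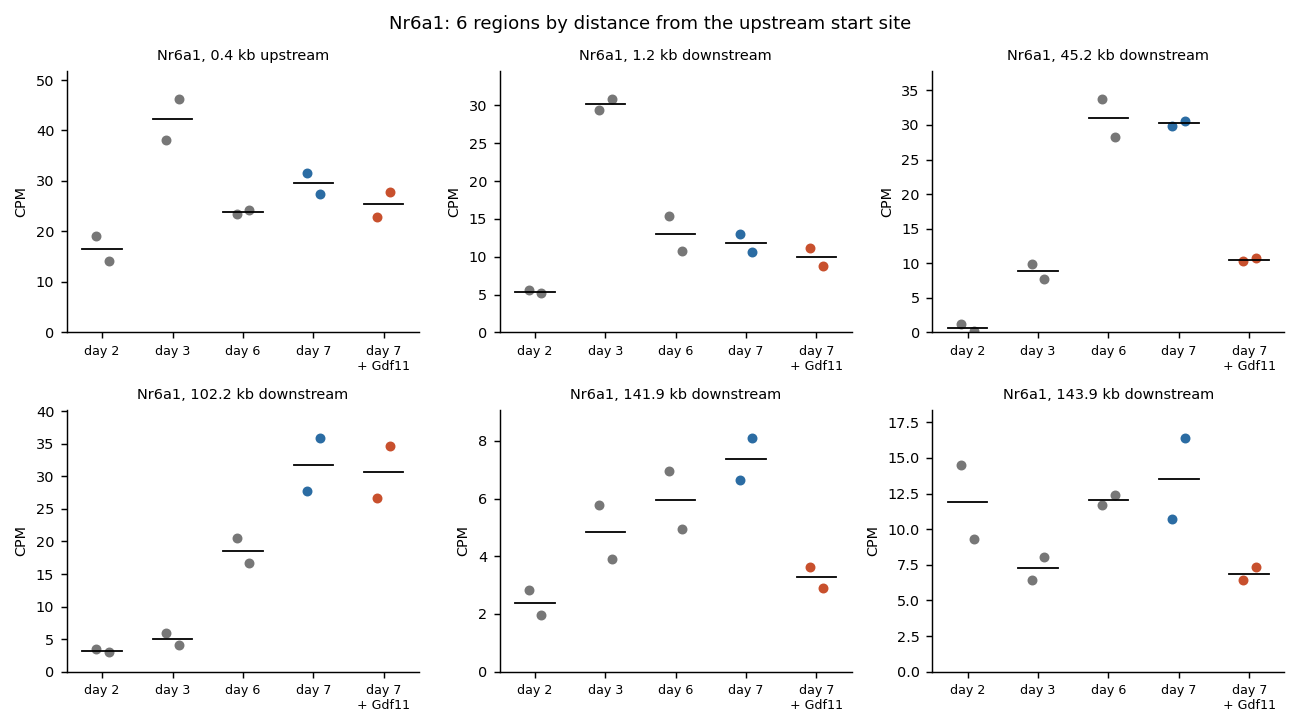
Accessibility (CPM) of 6 Nr6a1 regions by group, with points for libraries and lines for means, titled by distance from the upstream start. At 45.2 kb both Gdf11 libraries (orange) are near 10 CPM and both untreated day 7 libraries (blue) near 30, whereas at 102.2 kb the libraries of these groups overlap.

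For Hmga2 a single site 43.3 kb inside the gene held most of the difference. The region (chr10:120432847-120433504) held 8.05 and 10.5 CPM at day 2, 25.2 and 21.2 at day 3, 23.4 and 20.1 at day 6, 32.3 and 43.2 at day 7 and 15.7 and 13.7 after Gdf11. It was 2.55-fold lower with Gdf11 than at untreated day 7 (log2 change -1.35 ± 0.19, adjusted p = 1.66e-06), a call kept under every alternative run. It had risen 2.54-fold from day 2 to day 3 (1.34, adjusted p = 1.47e-06) and 1.71-fold from day 6 to untreated day 7 (0.78, adjusted p = 0.0155). The Gdf11 libraries lay between day 2 and day 3.

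This region carried 58.8% of the 39.2 CPM by which Hmga2 was lower with Gdf11. Without it the summed change of Hmga2 was -0.16 and not called (adjusted p = 0.258). This region too was picked for its smallest p in the same comparison, which weakens the remaining sum by design. At the Hmga2 start, the region with the most counts (chr10:120475962-120476962) held 31.5 and 38.1 CPM at day 7 and 23.7 and 29.7 after Gdf11, with no call (log2 change -0.38, adjusted p = 0.26).

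Fainter Hmga2 sites 54.2 to 59.1 kb downstream went in both directions. At chr10:120417223-120417457 the level was 5.31 and 2.95 CPM at day 7 and 0.844 and 1.51 after Gdf11, a 3.64-fold difference (log2 change -1.87 ± 0.47, adjusted p = 0.0109). The only higher call was at chr10:120422128-120422319, with 0.81 and 0.736 CPM at day 7 and 3.04 and 3.01 after Gdf11, 3.84-fold higher (1.94 ± 0.56, adjusted p = 0.031). Both rest on few counts. The first call was lost without replicate 1 of either group (adjusted p = 0.33 and 0.248), and the second whichever library was left out (0.143 to 0.23).

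Between these, a site at chr10:120420874-120421316 was almost closed early, with 0 and 0.392 CPM at day 2 and 0.934 and 1.01 at day 3. It held 8.79 and 9.99 CPM at day 6, 9.57-fold above day 3 (log2 change 3.26 ± 0.38, adjusted p = 1.46e-09), then 14.8 and 13.8 at day 7 and 6.92 and 8.93 after Gdf11. The Gdf11 libraries were below both untreated day 7 libraries, but the difference missed the threshold (-0.86, adjusted p = 0.0588).

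Lin28b showed its calls at weak sites inside the gene and none at its strongest site. The region 58.3 kb downstream (chr10:45411769-45412035) held 0.418 and 0.131 CPM at day 2, 2.21 and 2.45 at day 3, 5.35 and 2.46 at day 6, 5.94 and 10.2 at day 7 and 2.87 and 2.05 after Gdf11. It was 3.18-fold lower with Gdf11 (log2 change -1.67 ± 0.39, adjusted p = 0.00462), a call lost without replicate 2 of either group (adjusted p = 0.215 and 0.0634). The region 11.4 kb downstream (chr10:45458687-45458919) held 2.4 and 2.33 CPM at day 6, 2.43 and 2.95 at day 7 and 0.591 and 0.538 after Gdf11 (-2.21 ± 0.63, 4.62-fold, adjusted p = 0.0298). A peak was called there in all 4 libraries of day 6 and untreated day 7 and in no Gdf11 library, and the test's call was lost whichever library was left out (0.0911 to 0.202) and with library size alone (0.0609).

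The strongest Lin28b region (chr10:45485600-45487002) lies over the 5′ end of the annotated span, 16.1 kb upstream of the start used here. It held 46.2 and 60.5 CPM at day 7 and 41.4 and 52.9 after Gdf11. Its libraries overlapped and it was not called (log2 change -0.18, adjusted p = 0.687). Of the 22.7 CPM by which Lin28b was lower with Gdf11, this uncalled region held 27.6%, more than the called sites at 58.3 kb (24.7%) and 11.4 kb (9.37%). The region at the start used here (chr10:45470138-45470372) lies inside the span. It overlaps the printed window and its TTTATG match at -165, but ends short of the match at -224. It held 2.29 and 2.31 CPM at day 3, 6.07 and 6.7 at day 6, 9.63 and 6.04 at day 7 and 5.15 and 4.95 after Gdf11. It rose 2.75-fold from day 3 to day 6 (1.46, adjusted p = 0.00225), and the Gdf11 difference, 12.3% of that of the gene, was not called (-0.66 ± 0.31, adjusted p = 0.292).

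A further Lin28b site was open mainly at day 3. At chr10:45423708-45424291 the level was 0.836 and 2.09 CPM at day 2, 19.8 and 18.3 at day 3, 7.59 and 6.84 at day 6, 5.49 and 6.78 at day 7 and 4.98 and 5.27 after Gdf11. It rose 13.4-fold by day 3 (log2 change 3.75 ± 0.33, adjusted p = 1.26e-13). With a library left out that change ran from 3.18 to 4.44, the highest without day 2 replicate 2. The level then fell 2.63-fold by day 6 (-1.39, adjusted p = 4.74e-05), with no call for Gdf11 (-0.24, adjusted p = 0.754).

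**Figure D5:**
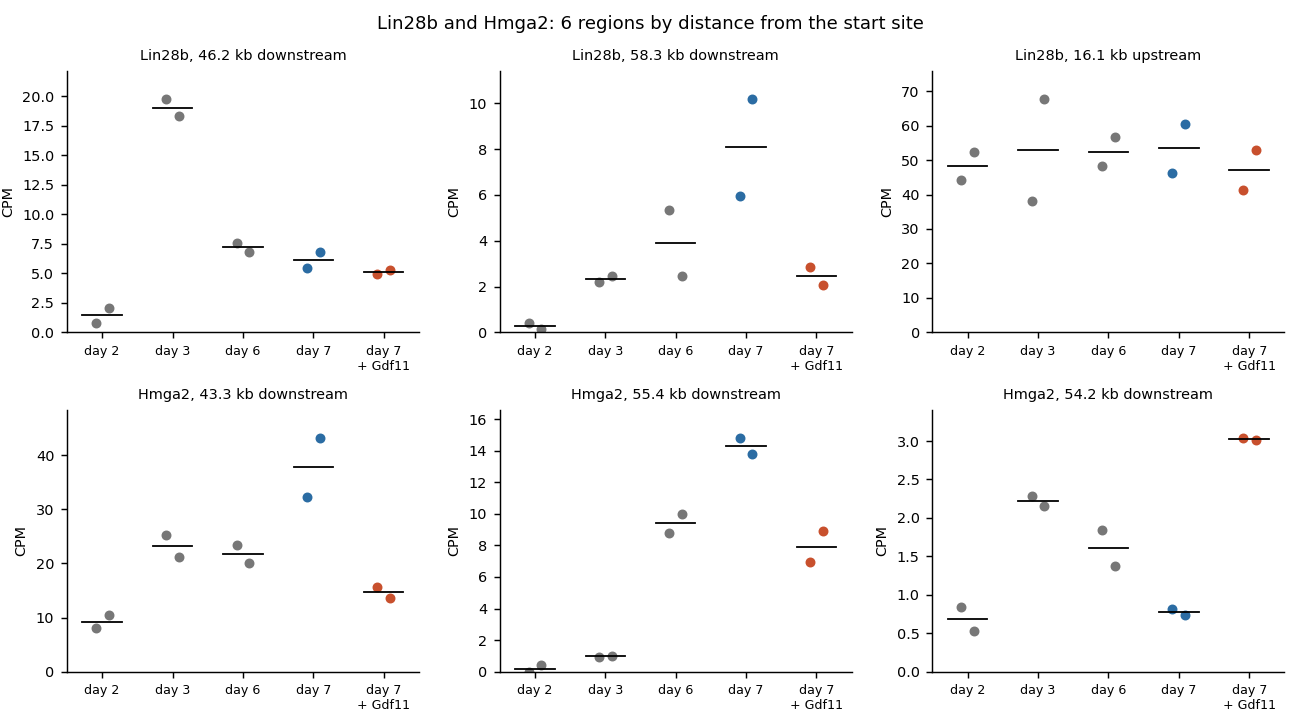
Accessibility (CPM) of 3 Lin28b and 3 Hmga2 regions by group, with points for libraries and lines for means, titled by distance from the start site. At the Hmga2 site 43.3 kb downstream the Gdf11 libraries (orange) hold 15.7 and 13.7 CPM against 32.3 and 43.2 at untreated day 7 (blue), while the Lin28b site 16.1 kb upstream overlaps between them.

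Against day 6, the day on which Gdf11 was added, Lin28a was the only member called, and it was lower. It was 1.58-fold lower (log2 change -0.66 ± 0.11, adjusted p = 0.00046), where 1.27% of all genes were lower and 0.614% higher. Nr6a1 differed by 0.03 (95% interval -0.13 to 0.2), Hmga2 by -0.08 (-0.25 to 0.09) and Lin28b by -0.29 (-0.49 to -0.08 before adjustment, adjusted p = 0.136). Of the regions, 3 were called lower and 1 higher, beside 1.33% and 1.05% of all regions. The lower ones were the Nr6a1 site 45.2 kb downstream and the Lin28a sites 1.3 kb upstream (2.11-fold, adjusted p = 0.0132) and 0.6 kb upstream (2.12-fold, adjusted p = 0.00691). The first of these Lin28a calls was lost whichever library was left out (adjusted p from 0.0748 to 0.166), and the second without day 6 replicate 2 or Gdf11 replicate 1 (0.0541 and 0.1).

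Without Gdf11, Nr6a1 was the only member called higher from day 6 to day 7. Its summed level was 1.25-fold higher (log2 change 0.32 ± 0.08, adjusted p = 0.0145), beside 3.58% of all genes higher and 0.677% lower. The call was lost with library size alone (0.21, adjusted p = 0.148), with cyclic loess (0.18, adjusted p = 0.168) and without replicate 2 of day 6 or of day 7 (adjusted p = 0.203 and 0.173). Hmga2 changed by 0.24 (adjusted p = 0.103), and it was called with the replicate number as a block (0.0333) and in a fit of the 4 libraries compared (0.0415). Lin28a changed by 0.13 (0.558) and Lin28b by 0.01 (0.979), and differences between the genes were not tested. Of the regions, 4 were higher and none lower, beside 0.971% and 0.207% of all regions, and these were the 3 Nr6a1 sites near 100 kb and the Hmga2 site at 43.3 kb. None of the 4 calls remained without replicate 2 of day 6 or of day 7. The comparison of Gdf11 with untreated day 7 shares its libraries with this and the preceding one, so the 3 are not independent.

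Earlier in the course, day 6 against day 3 moved the members in both directions. Lin28a fell 1.58-fold (log2 change -0.66 ± 0.11, adjusted p = 1.36e-05), while Hmga2 rose 1.38-fold (0.47 ± 0.09, adjusted p = 0.000143) and Nr6a1 1.2-fold (0.27 ± 0.08, adjusted p = 0.0152), beside 9.47% of genes higher and 10.7% lower. Lin28b changed by -0.05 (adjusted p = 0.767). The Nr6a1 call was lost without replicate 1 of day 3 or of day 6 (adjusted p = 0.103 and 0.224), with cyclic loess (0.124) and without its site at 45.2 kb (0.238). Of the regions, 16 were higher and 11 lower, beside 9.12% and 5.98% of all regions, and 10 were higher without day 3 replicate 1.

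From day 2, when the Wnt activator was added, to day 3, Nr6a1 rose 1.54-fold (log2 change 0.62 ± 0.08, adjusted p = 6.69e-07), Lin28b 1.4-fold (0.49 ± 0.1, adjusted p = 0.000559) and Hmga2 1.32-fold (0.4 ± 0.09, adjusted p = 0.00154). Among all genes 12.3% were higher and 10.4% lower. Lin28a changed by 0.13 (95% interval -0.08 to 0.34, adjusted p = 0.391). The Hmga2 call was lost without day 2 replicate 1 (adjusted p = 0.0575) and without its site at 43.3 kb (0.067). Of the regions, 17 were higher and 3 lower, beside 8.76% and 4.31%. The lower ones were the Nr6a1 sites at 9.0 and 143.9 kb and a Lin28a site 17.3 kb upstream (chr4:134036001-134036274, 2.46-fold, adjusted p = 0.0234). The Lin28a call was lost whichever library was left out (adjusted p from 0.0659 to 0.146), and that at 143.9 kb without replicate 1 of day 2 or of day 3 (0.542 and 0.277).

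The authors' peak lists gave a coarser view of the 128 regions. A peak was called in at least 1 library for 67 regions at day 2 (52.3%), 71 at day 3 (55.5%), 66 at day 6 (51.6%), 81 at day 7 (63.3%) and 71 after Gdf11 (55.5%). Over all 246799 regions the shares were 52.3%, 48.6%, 45.7%, 50.1% and 48.5%. In all 10 libraries 16 regions had a peak (12.5%, against 13.1% of all regions), of which 8 were of Nr6a1, 4 of Hmga2, 3 of Lin28b and 1 of Lin28a. Another 35 had a peak in 1 library (27.3%, against 39.5%). Peaks found after Gdf11 and in no other group numbered 6 (4.69%, against 8.68%), of which 2 (1.56%, against 1.02%), both outside the Hmga2 span, were in both Gdf11 libraries.

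Genes related to the members were more often lower than higher with Gdf11, as were all genes, of which 11.2% were lower and 2.05% higher. That split over all genes turned round with library size alone (592 lower, 985 higher), and the counts of lower genes in the 3 related lists shrank with it. Of 21 genes of the Lin28 and let-7 axis, 10 were lower and 1 higher than at untreated day 7, with a median log2 change of -0.27 against -0.1 over all genes, and 5 were lower with library size alone or cyclic loess. Dis3l2, the exonuclease that degrades uridylated let-7 precursors, was lower by -0.79 ± 0.1 (adjusted p = 3.04e-07). The let-7 targets Igf2bp3 (-0.45, adjusted p = 0.000195), Myc (-0.5, adjusted p = 0.000231) and Trim71 (-0.46, adjusted p = 0.000964) were lower too. The exception was Drosha (0.56, adjusted p = 0.0054), the nuclease that starts microRNA processing. The Trim71 call was lost without untreated day 7 replicate 2 (adjusted p = 0.061), and that of Drosha without either untreated day 7 library or Gdf11 replicate 1 (0.0536 to 0.12). From day 6 to untreated day 7, when 3.58% of all genes were higher and 0.677% lower, the axis list had 5 higher and none lower, Dis3l2 among them (0.64, adjusted p = 3.59e-05). With library size alone or cyclic loess 1 was higher, and 1 to 2 with a library left out.

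Of 21 axial regulators outside the Hox clusters, 10 were lower and 1, Pou5f1, higher (0.54, adjusted p = 0.0383), with a median of -0.21, and 4 were lower with library size alone or cyclic loess. The Pou5f1 call was lost whichever library was left out (adjusted p from 0.0806 to 0.249). Those with the smallest p were Smad3, a transducer of the Gdf11 signal (-0.69, adjusted p = 5.16e-06), Sox2 (-0.66, adjusted p = 7.05e-06), Cdx2 (-0.63, adjusted p = 3.56e-05) and Cyp26a1, the enzyme that breaks down retinoic acid (-0.68, adjusted p = 0.00275). Over regions inside the gene span alone, Sox2 changed by -0.19 (adjusted p = 0.424) and Cyp26a1 by 1.15, in the other direction and not called (0.0596).

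Of 33 other nuclear receptors, 11 were lower and none higher, with a median of -0.19, and 4 were lower with library size alone or cyclic loess. They were led by Rora (-0.57, adjusted p = 2.63e-05), the retinoic acid receptor Rara (-0.6, adjusted p = 0.000272), Nr2f2 (-0.44, adjusted p = 0.00105) and Nr1d1 (-0.47, adjusted p = 0.00405, but 0.0691 without Gdf11 replicate 1). Nr5a1, whose span lies 8827 bp from that of Nr6a1, changed by -0.01 (adjusted p = 0.96). Of 12 posterior Hox genes, 1 was higher, Hoxc11 (0.72, adjusted p = 0.00657), and none lower, with a median of 0.19. That median was -0.01 without untreated day 7 replicate 1, 0.04 over regions inside the gene span and 0.35 with library size alone. The Hoxc11 call was kept in 10 of 13 alternative runs, and lost without untreated day 7 replicate 1 or Gdf11 replicate 2. Its change ran from 0.6 to 0.78 with a library left out and from 0.08 to 0.87 over all 13 runs.

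Markers of cell states moved in the same comparison, beside the 11.2% of all genes that were lower. All 8 neural progenitor markers were lower with Gdf11, and 7 with library size alone, and their summed level was 1270 and 1371 CPM at day 7 and 773 and 847.9 after Gdf11. Of 10 neuromesodermal progenitor markers 7 were lower and none higher, with 608.7 and 681.1 CPM against 446.5 and 457.6, and 4 were lower with library size alone or cyclic loess and 4 to 5 with a library left out. Feeder fibroblast markers gave 1 higher and 1 lower of 10, with 281.2 to 305.5 CPM at day 7 and 283.8 to 313.2 after Gdf11, endoderm markers 1 lower of 8 and epiblast markers 1 higher of 7. No marker was at 0 in all libraries. From day 6 to untreated day 7, when Nr6a1 was called higher, 5 of the 8 neural progenitor markers were higher and none lower, beside 3.58% and 0.677% of all genes. The part of these markers in the members' changes was not tested.

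By Pearson correlation of log2 CPM over the 10 libraries, the genes on other chromosomes most like Nr6a1 were Kirrel3 (0.99), Sema3a (0.99) and Zfhx4 (0.989). For Lin28a they were Six4 (0.972), Mien1 (0.971) and Olfr288 (0.966), for Lin28b Axin2 (0.96), Oxsr1 (0.96) and Ccng2 (0.949), and for Hmga2 Metap1 (0.994), Spry1 (0.992) and Npas3 (0.991). These were picked as the highest over libraries that share days and depth, and they describe likeness of pattern only.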

How the data were processed

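The deposited data were 1 table of raw counts per library over 246799 numbered regions, made by the authors, and 1 list of peaks per library. In the deposited lists the authors give each peak a fold enrichment, a ratio not used for comparisons here, and the -log10 of its q-value, used only as an alternative threshold of 5. HISAT2 2.1.0, SAMtools, MACS2 2.1.1.20160309, bedtools, HOMER 4.10 and build mm10 are named, with no roles, in the submitters' processing notes. The counter is not given in the sources used here, nor any filter, duplicate removal or shift of reads. The deposited motif tables were not used here.

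The count tables hold no coordinates. Merging the 10 peak lists with chromosomes in character order gave as many regions as were counted. In that order every library's own peaks fell in regions with counts, whereas numeric order left 1095 to 9931 of its peak regions empty, so positions rest on this match. Of the regions, 190637 lay within 50 kb of 1 of 21900 protein-coding genes of RefSeq on GRCm38.p6, and exons and introns were not annotated.

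Two-sided quasi-likelihood F tests of region counts and of their sums per gene were run in edgeR 4.0.16 (R 4.3.3) with filterByExpr, TMM factors and 1 fit of 10 libraries by group (common dispersion 0.0406 for regions and 0.00705 for genes). TMM factors were 0.9601 and 0.905 at untreated day 7 and 1.0842 and 1.0006 with Gdf11. Alternatives, with DESeq2 1.42.0 and limma 3.58.1 among them, are in the closing section, and leaving out each member's most changed region, and refitting the lists and markers under each setting, were added after seeing the data. Motifs were planned for regions and searched in promoter windows, since no genome was used here. Members, lists and tests were chosen with earlier results of these data known. Named were every called region of the Gdf11 comparison, up to 12 by p, up to 3 regions per direction of each other comparison, the most counted and the start region of each gene, and up to 4 genes per list, with Drosha, Pou5f1 and Nr5a1, and the Hmga2 peaks found only after Gdf11, added after their values were seen.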

Additional observations from a re-analysis of the deposited data

How the results depend on the processing

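The counts of called members, each member gene and named region, and the list and marker counts and genes named from 2 comparisons (Gdf11 against untreated day 7 and untreated day 7 against day 6) were recomputed with library size alone, cyclic loess, DESeq2, no filter, the replicate number as a block, library totals without mitochondrial regions, only the 4 libraries compared, and each library left out, and genes also with a 10 kb limit, with regions inside the span, and without each member's most changed region. No call went over to the opposite direction, though Cyp26a1 had 1.15 in place of -0.68, without a call, over regions inside its span. Of the members' Gdf11 changes at day 7, that of Lin28a kept its call in all. Counts are of the 4 genes or 108 regions where no list is named, and the cause of each change was not tested.

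For Gdf11 against untreated day 7, 4 genes were lower, but 1 with library size alone, with cyclic loess and without the most changed regions, and 1 to 4 with a library left out. Nr6a1 went to -0.12, -0.1 and -0.2 under those 3, Hmga2 to -0.16, -0.15 and -0.16, and Lin28b to -0.13, -0.12 and -0.23, each without a call. Lin28b also lost its call without mitochondrial regions (-0.29, adjusted p = 0.0547), with 4 libraries (-0.25, 0.0577), within 10 kb (-0.3, 0.0556), inside the span (-0.3, 0.0706) and by DESeq2 (-0.29, 0.0917). With a library left out the changes ran from -0.35 to -0.25 for Nr6a1, -0.4 to -0.24 for Lin28b and -0.42 to -0.29 for Hmga2. Regions called higher numbered 1, but 2 with 4 libraries and 0 by DESeq2. That higher call, at chr10:120422128-120422319, was kept in no fit with a library left out, and fewer than 12 regions were called lower in those fits.

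For Gdf11 against day 6, higher regions numbered 1, but 3 with library size alone, no filter, the replicate block or loess, 2 without mitochondrial regions, 6 with 4 libraries and 0 by DESeq2. Lower regions numbered 3, but 6 with the block and 8 with 4 libraries. With a library left out they were 0 to 1 and 1 to 3. The block called 2 genes lower in place of 1, adding Lin28b (adjusted p = 0.0242). For day 7 against day 6, higher regions numbered 4, but 2 with library size alone and loess and 0 to 4 with a library left out. Higher genes numbered 1, but 0 with library size alone and loess, 2 with the block and with 4 libraries, and 0 to 1 with a library left out. For day 6 against day 3, DESeq2 called 10 regions higher in place of 16 and leaving out a library 10 to 12, and genes higher went from 2 to 1 with loess and without the most changed regions, and to 1 to 2 with a library left out. For day 3 against day 2, DESeq2 called 11 regions higher and 1 lower in place of 17 and 3, and leaving out a library gave 1 to 3 lower.

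Of the lists, for Gdf11 against untreated day 7, lower genes of the Lin28 and let-7 axis numbered 10, but 5 with library size alone and loess. Lower axial regulators numbered 10, but 4 with library size alone, loess and inside the span and 6 within 10 kb, and lower nuclear receptors 11, but 4 with library size alone and loess and 7 inside the span. Lower neuromesodermal markers numbered 7, but 4 with library size alone, loess and within 10 kb and 3 inside the span. With a library left out these 4 lists had 4 to 12, 5 to 8, 3 to 11 and 4 to 5, and all 8 neural markers stayed lower. For day 7 against day 6, higher axis genes numbered 5, but 1 with library size alone and loess, 2 inside the span and 1 to 2 with a library left out. Inside the span 3 neural markers were higher in place of 5, and there and within 10 kb 1 axial regulator in place of 3 and 1 neuromesodermal marker in place of 2. Higher nuclear receptors numbered 5, but 1 to 5 with a library left out.

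Over single regions, the deviations of same-numbered libraries had r from -0.001 to 0.047. Counting noise in faint regions lowers such an r, so it cannot exclude a shared batch. In every group replicate 1 had more counts and a lower mitochondrial share than replicate 2. With the block, 624 genes were higher and 3192 lower for Gdf11 against untreated day 7, in place of 391 and 2137. Whether the numbers pair the libraries is not known, and the block is given as an alternative. Counts of regions with a peak moved by less than 1.5 times with a -log10 q of at least 5 or an overlap of 50%. Depth limits the sites under about 3 CPM, whose calls rest on few counts. A lone library of a group was taken to vary like the other groups.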
